A study of Rattus norvegicus with 6 samples.

Results

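Genes that mark Mueller glia and astrocytes were measured in retinal ganglion cells captured by laser from both eyes of 3 adult male Brown Norway rats. They were all probe sets that the array's platform annotation assigns to a single symbol among Gfap, Vim, Glul, Rlbp1, Slc1a3, Aqp4, S100b, Apoe and Clu, which gave 17 of the 31042 probe sets that are not controls, for 9 of 14217 named genes. Ganglion cells had been labelled from the superior colliculus with Fluorogold in both eyes, the pressure of 1 eye per rat had been raised for 10 days by injecting hypertonic saline into an episcleral vein, and 2000 cells were captured from each eye. The fellow eye was the control. Each eye gave 1 array, so the groups were OS, the left eye (n = 3), and OD, the right eye (n = 3), and both carried the label injection. The treated side is not named in the labels, so OS minus OD carries no sign relative to the treatment, and sides treated differently in different rats would partly cancel.

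Mueller glia span the retina from the photoreceptors to the vitreous and wrap the ganglion cell bodies, while astrocytes lie along the ganglion cell axons. Both take up glutamate, move water and potassium, and supply lipids to neurons. After injury, including raised eye pressure, they are known to enter gliosis, in which intermediate filament genes such as Gfap are induced. The sample is labelled as ganglion cells, and several of these genes are not exclusive to glia: Rlbp1 is also made by the pigment epithelium, Vim by vessel cells, Apoe by microglia and Clu by neurons. In pooled captured cells, a lower value from fewer cells of a type and one from less RNA per cell cannot be told apart.

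Intensities had been scaled to a common trimmed mean of about 500 before deposit, and the median array value lay between 313 and 369. An array's background limit, the 95th percentile of its 27 probe sets for bacterial RNAs not spiked in, lay between 261 and 591. Differences are OS minus OD within a rat on the scale log2(intensity + 16), given as mean ± SD over 3 rats. Where an array's value lay below its limit, the difference is one of readings and its size is not measured. Of 10 ganglion cell markers, 6 were above the limit on all 6 arrays, Thy1, Nefh and Nefm among them.

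The 250 bases before the start site are shown for the genes on which the results turn, S100b, Rlbp1, Glul and Gfap. Readings of S100b were lower in OS in every rat, with every OS value below its background limit. Levels of Rlbp1 and Glul over the 6 arrays were similar, and Gfap was measured on all arrays. Sequences are from RefSeq, build GRCr8, read 5′ to 3′ on the gene's strand, and 8 of the 9 genes matched the promoter table. Both strands were searched for 6 motifs, and capitals mark their matches. Of 33469 promoter windows of this length, 34.0% held CCAAT, the CCAAT box, and 30.5% held GGGCGG, the GC box. The A-rich run AATAAA was held by 19.4% and the TATA box, TATAAA, by 12.9%. The STAT motif TTCNNNGAA was held by 7.67% and the AP-1 motif TGANTCA by 6.34%.
S100b, chr20:12381082-12381331, minus strand: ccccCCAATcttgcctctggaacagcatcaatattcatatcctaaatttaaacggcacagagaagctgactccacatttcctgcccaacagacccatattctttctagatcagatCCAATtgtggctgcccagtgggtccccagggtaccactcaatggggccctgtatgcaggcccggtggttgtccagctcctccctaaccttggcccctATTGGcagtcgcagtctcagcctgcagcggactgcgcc
Rlbp1, chr1:142731622-142731871, minus strand: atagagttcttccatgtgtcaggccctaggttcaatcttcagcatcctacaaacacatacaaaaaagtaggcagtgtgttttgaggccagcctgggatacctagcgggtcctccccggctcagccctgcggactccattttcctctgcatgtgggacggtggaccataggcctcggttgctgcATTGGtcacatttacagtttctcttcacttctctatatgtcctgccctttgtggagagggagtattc
Glul, upstream start, chr13:68519250-68519499, plus strand: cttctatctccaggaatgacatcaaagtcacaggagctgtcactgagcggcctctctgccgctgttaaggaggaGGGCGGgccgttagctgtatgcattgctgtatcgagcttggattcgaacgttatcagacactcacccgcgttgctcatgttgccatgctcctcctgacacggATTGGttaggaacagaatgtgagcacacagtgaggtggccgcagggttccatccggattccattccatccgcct
Glul, downstream start, chr13:68575816-68576065, plus strand: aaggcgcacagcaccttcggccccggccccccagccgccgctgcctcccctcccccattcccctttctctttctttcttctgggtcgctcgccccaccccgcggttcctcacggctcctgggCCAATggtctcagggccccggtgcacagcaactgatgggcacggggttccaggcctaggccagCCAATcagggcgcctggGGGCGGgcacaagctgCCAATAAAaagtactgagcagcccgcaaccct
Gfap, chr10:88361662-88361911, minus strand: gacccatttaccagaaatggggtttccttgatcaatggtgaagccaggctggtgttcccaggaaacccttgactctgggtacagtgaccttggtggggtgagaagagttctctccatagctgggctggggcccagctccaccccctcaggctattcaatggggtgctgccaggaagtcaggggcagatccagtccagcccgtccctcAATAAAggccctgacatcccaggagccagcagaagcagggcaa
S100b held 3 CCAAT matches and Rlbp1 held 1, starting 67 bases before the start site. The upstream Glul window held 1 match to the CCAAT box and 1 to the GC box. The downstream one held 3 to the CCAAT box, 1 to the GC box and 1 to the A-rich run, the last overlapping a CCAAT match and starting 30 bases before the start site. Gfap held 1 AATAAA match, 43 bases before its start. None of these 5 windows held the letters of the TATA box, the STAT motif or the AP-1 motif. A match is a run of letters, not a shown site.

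Transcripts of 3 glial genes were measured above the background limit in every eye: Gfap, Glul and Rlbp1, each by 1 probe set. These were 3 of 17 probe sets (17.6%), beside 11.3% of all probe sets. Another 3 of the 17, namely 1 each for Aqp4, Apoe and Clu, were above it on no array, and the remaining 11 on some arrays. None of the 9 genes passed the test between eyes. The smallest adjusted p was 0.603, for Rlbp1 (limma, Benjamini-Hochberg over 15521 probe sets). Only probe sets with a mean log2 value of at least 8.12 were tested, which kept 8 of the 17, for 6 genes, and left S100b, Apoe and Clu without a test. Of the 8, 0 passed at an adjusted p of 0.05 and 1, Rlbp1, had an unadjusted p under 0.05, beside 0.0129% and 6.91% of all probe sets tested.

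**Figure D1:**
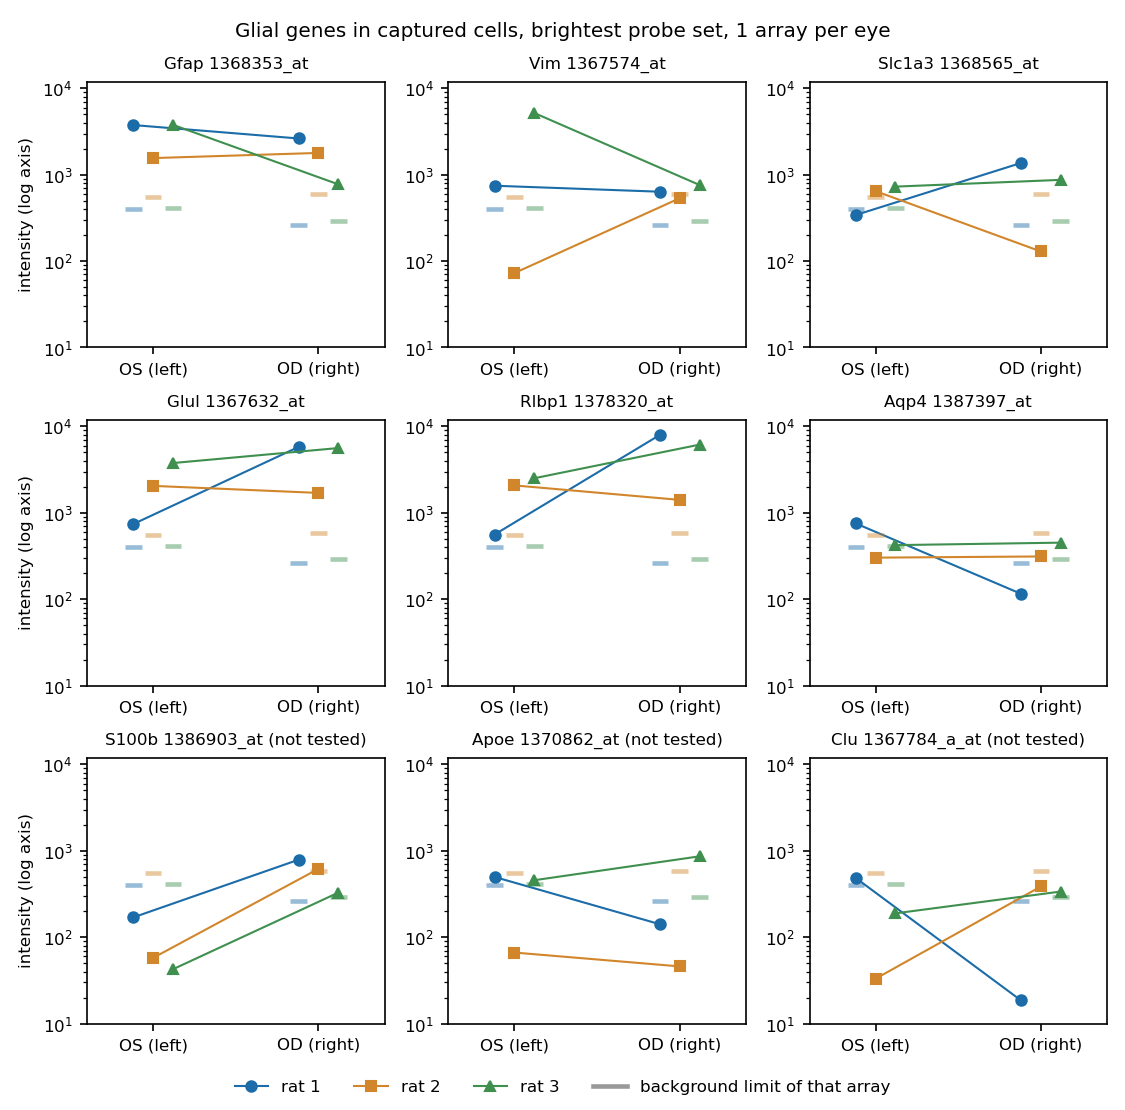
Intensity (log axis) of the brightest probe set of each of the 9 genes, OS left and OD right, with a point for each array, a line joining the eyes of a rat, and short pale bars at each array's background limit. Gfap, Glul and Rlbp1 lie above the limit on all 6 arrays. S100b lies below it on all 3 OS arrays and above it on all 3 OD arrays.

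Gfap and Vim encode the intermediate filament proteins of glia. Gfap (1368353_at) read 3757.4, 1558.0 and 3777.3 in OS of rats 1, 2 and 3, against 2626.9, 1787.4 and 773.9 in OD. It was higher in OS in rats 1 and 3 and slightly lower in rat 2, and the eyes overlapped. The mean difference was 0.86 ± 1.27 (95% interval -0.19 to 1.91, limma adjusted p = 0.781), so it was smaller than the spread between rats, most of it from rat 3, at 2.26. Without rat 3 it was 0.16, and without rat 2 it was 1.39.

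Vim (1367574_at) read 745.6, 72.7 and 5185.2 in OS, against 635.6, 534.3 and 760.7 in OD. The OS array of rat 3 was far above the other 5, and that of rat 2 was far below them. In rat 2 both eyes were under their background limits of 547 and 591, so the sign there was not measured. The within-rat differences were 0.23, -2.63 and 2.74 in rats 1 to 3, with a mean of 0.11 ± 2.69 (limma adjusted p = 0.987). In rats 1 and 3 they had the same sign as those of Gfap. On the differences among rats, Vim had the smallest adjusted p of the 8 probe sets tested, 0.230 (moderated F test in the same limma fit). Its 2 eyes averaged 2973 in rat 3, against 691 in rat 1 and 304 in rat 2. Among rats 0 of the 8 passed, beside 2.51% of all probe sets tested, and 1, Vim, had an unadjusted p under 0.05, beside 13.0%. Without rat 1 the adjusted p of Vim among the remaining rats was 0.0312 (moderated F test). Of all 15521 probe sets tested, 620 passed there, against 390 with all rats.

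By the measure of likeness used, Pearson's r of log2 values over the 6 arrays, the 3 genes most like Gfap were Gnb3 (0.979), Zfp655 (0.976) and Atxn2l (0.967). Vim, at 0.450, ranked 1757th of 10434 probe sets compared. The 6 arrays come from 3 rats and are not independent.

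Glutamate is taken up by the transporter Slc1a3 (GLAST) and converted to glutamine by glutamine synthetase, the product of Glul. Rlbp1 encodes CRALBP, which binds 11-cis retinoids in Mueller glia and pigment epithelium. Glul (1367632_at) read 740.6, 2048.0 and 3765.9 in OS, against 5787.7, 1697.2 and 5613.1 in OD. Rlbp1 (1378320_at) read 559.8, 2073.9 and 2509.7 in OS, against 7967.1, 1409.7 and 6147.6 in OD. Both genes had their highest values in OD of rats 1 and 3 and their lowest in OS of rat 1, and in both the eyes overlapped through rat 2.

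The within-rat differences of Rlbp1 were -3.79, 0.55 and -1.29 in rats 1 to 3, with a mean of -1.51 ± 2.18 (95% interval -2.73 to -0.29, limma adjusted p = 0.603). Those of Glul were -2.94, 0.27 and -0.57, with a mean of -1.08 ± 1.66 (95% interval -2.17 to 0.01, limma adjusted p = 0.727). Neither exceeded the spread between rats. Without rat 2, the rat in which the sign was opposite, the mean of Rlbp1 over the remaining rats was -2.54, lower in OS in both (limma adjusted p = 0.0223). That common sign follows from the choice of the rat left out. Over all 15521 probe sets tested, 59 passed without rat 2, against 2 with all rats. Without rat 1 its mean was -0.37. Glul, over the same alternatives, did not pass, and its mean was -0.15 without rat 1.

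Over the 6 arrays the log2 values of Glul and Rlbp1 had a Pearson's r of 0.974. Among 10434 probe sets, Glul ranked 6th in likeness to Rlbp1, and Rlbp1 ranked 15th in likeness to Glul. The pair was picked after its values were seen, and the arrays share animals and scaling. The other Glul probe sets gave no common pattern. Glul 1386870_at, also tested, differed by -0.58, -0.04 and 1.43 in rats 1 to 3 (mean 0.27 ± 1.04, limma adjusted p = 0.948). The dim 1367633_at exceeded the limit on 1 OS and 1 OD array. Its readings differed by -2.11, 3.77 and -2.05 in rats 1 to 3, with a mean of -0.13 ± 3.37. These are the signs of 1367632_at and Rlbp1, but in rat 3 both eyes lay below their limits. The sign of 1367633_at was therefore not measured there.

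Slc1a3 had 2 probe sets tested. For 1368565_at the values were 341.7, 645.2 and 728.1 in OS, against 1368.8, 129.2 and 871.6 in OD. The difference was -0.01 ± 2.08 (limma adjusted p = 0.999), with OS lower in rats 1 and 3 and higher in rat 2, the same signs as for Glul and Rlbp1. The probe set 1371130_at was steadier, at 387.4, 790.5 and 529.8 in OS against 297.6, 720.9 and 606.1 in OD, and differed by 0.10 ± 0.28 (95% interval -1.47 to 1.68, limma adjusted p = 0.987). The third, 1388064_a_at, was above the limit only in OS of rat 3, at 655.2. The probe sets thus gave no common direction for this gene.

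**Figure D2:**
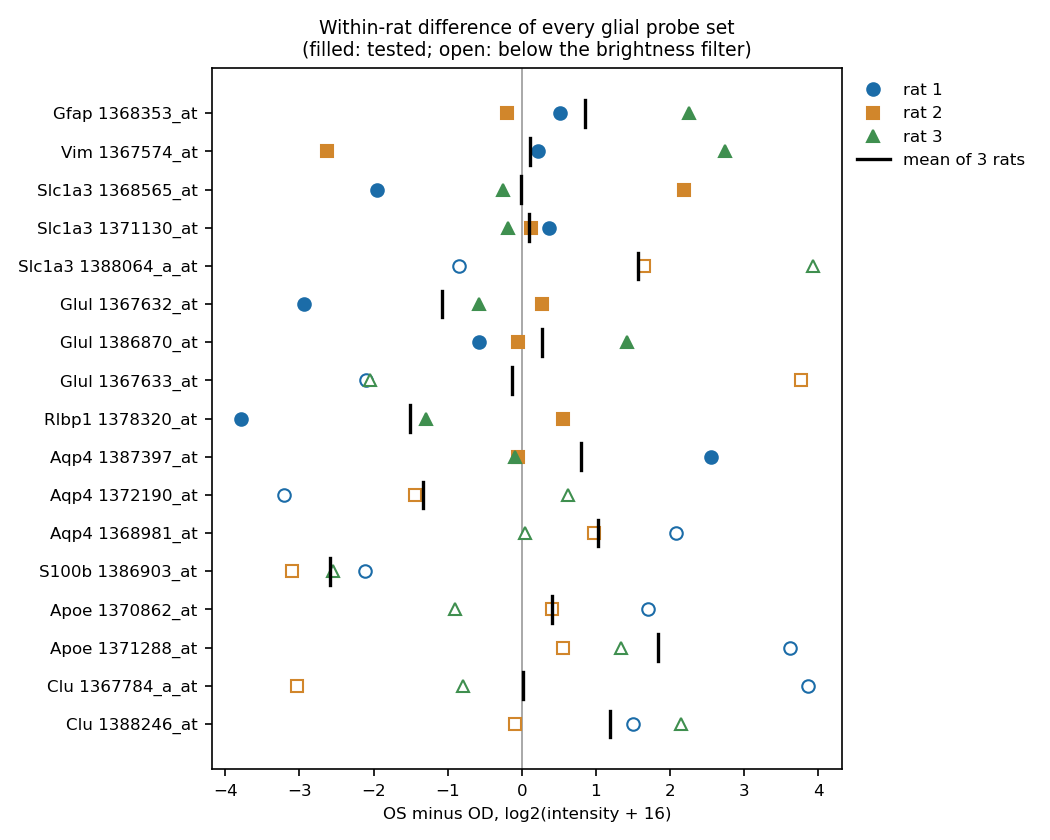
Difference of OS minus OD on the scale log2(intensity + 16) for each of the 17 probe sets, with a marker for each rat and a black bar at the mean. Filled markers were tested and open ones fell below the brightness filter. The 3 rats lie on the same side of 0 for S100b (lower in OS) and for 1 probe set each of Aqp4 and Apoe (higher in OS).

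Aqp4 encodes the water channel of glial endfeet. Its brightest probe set, 1387397_at, read 751.9, 302.3 and 422.0 in OS, against 115.2, 312.0 and 450.8 in OD. The readings differed by 2.55 in rat 1, where OD lay below its limit of 261, and by -0.04 and -0.09 in rats 2 and 3 (mean 0.80 ± 1.51, limma adjusted p = 0.887). In rat 2 both eyes lay below their limits. Of its 2 dim probe sets, 1372190_at was lower in OS in rats 1 and 2 (-1.34 ± 1.92), and 1368981_at was higher in 3 of 3 rats (1.04 ± 1.02) but above the limit on no array. For 1372190_at both eyes of rat 2 lay below their limits, so the sign there was not measured.

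S100b encodes a calcium-binding protein of glia, and it was the only one of the 9 genes whose brightest probe set gave 1 direction in all 3 rats. Its probe set 1386903_at read 169.7, 57.7 and 42.6 in OS, against 789.1, 618.1 and 327.9 in OD. Every OS value was below its array's background limit and below every OD value, and every OD value was above its limit. In rats 2 and 3 the OD values exceeded their limits of 591 and 293 by little. The within-rat differences were -2.12, -3.10 and -2.55, with a mean of -2.59 ± 0.50. Since OS was not measured above background, OD was at least 1.21-fold higher, computed against the OS limits over the 3 rats. Rat 1 decided this bound. By rat, OD over the OS limit was 1.94, 1.13 and 0.809, and without rat 1 the mean ratio was 0.955, which gives no bound.

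Its mean log2 value of 7.83 lay under the filter, so S100b had no test in the main fit. Fitted without a filter, over all 31042 probe sets, its unadjusted p was 0.0336 and its adjusted p was 0.765 (limma), and 0 of the 17 probe sets passed there. All OS arrays lay below all OD arrays in 1 of the 17 probe sets (5.88%), beside 4.66% of all probe sets, and none of the 17 had all OS arrays above all OD arrays, beside 5.36%. Above the limit on all OD arrays and on no OS array were 0.963% of all probe sets, and the reverse held for 0.222%. Lower in OS in 3 of 3 rats was 1 of the 17, beside 12.2%, and higher were 2 of the 17 (11.8%), beside 14.9%.

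Apoe and Clu encode secreted apolipoproteins, Apoe the main lipid carrier of the nervous system and Clu an extracellular chaperone. Both were dim. Apoe 1370862_at read 498.2, 66.4 and 456.5 in OS, against 141.3, 45.9 and 863.1 in OD, and exceeded the limit on 2 OS and 1 OD arrays. Its differences were 1.71, 0.41 and -0.90 in rats 1 to 3, with rat 3 opposite to rat 1. In rat 2 both eyes lay below their limits, so the sign there was not measured. The second, 1371288_at, was higher in OS in 3 of 3 rats (1.84 ± 1.59) and above the limit on no array. Clu 1367784_a_at exceeded the limit on 1 array of each eye and differed by 3.86, -3.03 and -0.79 in rats 1 to 3, a mean of 0.01 ± 3.52. Clu 1388246_at differed by 1.19 ± 1.16 and exceeded the limit on no array.

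Of the 9 genes by their brightest probe sets, 5 had a higher and 4 a lower mean in OS. In rat 1, 5 were higher and 4 lower, in rat 2, 4 and 5, and in rat 3, 2 and 7. The median difference over the 8 probe sets tested was 0.11, beside -0.01 over all 15521. Their median SD between rats was 1.59, beside 1.16 over all tested. Of the 5 genes with several probe sets, the mean direction was common to all probe sets in 2, Apoe and Clu, both dim. Neither was stable: the mean of Apoe 1370862_at was -0.24 without rat 1, and that of Clu 1367784_a_at was -1.91 without rat 1, -0.050 with an offset of 64 and -0.12 under quantile normalization.

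Other glial genes did not pass between eyes either, and for this and the following lists passing refers to that test. Among rats, Gja1 did pass (moderated F test, adjusted p = 0.00156). Of 20 listed Mueller glia and astrocyte genes 19 had a named probe set and 11 were tested, 7 with a higher and 4 with a lower mean in OS, with a median of 0.15. The gap junction gene Gja1 read 627.1, 1128.2 and 4305.1 in OS, against 1664.5, 1010.4 and 44851 in OD, and differed by -1.54 ± 1.77 (limma adjusted p = 0.537). Its OD value in rat 3 was far above the other arrays. Dkk3, a secreted Wnt modulator of Mueller glia, differed by -0.77 ± 0.84, and the filament gene Nes, expressed in reactive glia, by 1.41 ± 1.26. Nes readings were higher in OS in 3 of 3 rats, but in rat 2 both eyes were below their limits. The sign there was not measured. In rat 3 the OD value of Nes was also below its limit, and rat 1, with both eyes above, differed by 0.06.

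Of 20 reactive gliosis genes 17 had a named probe set and 7 were tested, 6 with a higher and 1 with a lower mean in OS, with a median of 0.58, and 0 passed (smallest limma adjusted p = 0.796). Igfbp3, a binding protein for insulin-like growth factors, was higher in OS in 3 of 3 rats (1.03 ± 0.68). Socs3, a feedback inhibitor of cytokine signalling, differed by 1.59 ± 2.40 and the copper-binding ferroxidase gene Cp by -0.82 ± 1.09. For Cp both eyes of rat 2 were below their limits, so the sign there was not measured, and rats 1 and 3 gave 0.03 and -0.43. The summed intensity of the 17 genes was 8986, 9072 and 10184 in OS, against 5146, 7253 and 7347 in OD. The groups did not overlap, and after quantile normalization the log2 ratio was still above 0 in each rat, between 0.40 and 0.76. The sums include readings below background. In rats 1 to 3, 10, 5 and 9 of the 17 exceeded the limit in OS, against 7, 6 and 6 in OD, and 2 of the 17 did on all 6 arrays. Leaving out the brightest gene, Il6st, the ratio was 0.05 in rat 2. The median difference over the 7 tested genes was 0.56, -0.48 and 0.61 in rats 1 to 3, so it was lower in OS in rat 2. Of these 7, only Igfbp3 was higher in OS in 3 of 3 rats.

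Of 10 glutamate and glutamine handling genes 9 had a named probe set and 7 were tested, 4 with a higher and 3 with a lower mean in OS (median 0.35), and 0 passed. The glutamine transporter gene Slc38a1 differed by -1.07 ± 0.98, with its 2 other probe sets, not tested, opposite in sign. The neuronal glutamate transporter gene Slc1a1 differed by -0.66 ± 1.14. The mitochondrial aminotransferase gene Got2 differed by 0.47 ± 1.02, with its other tested probe set opposite in sign. Of 14 lipoprotein and cholesterol handling genes 11 had a named probe set and 6 were tested, 3 in each direction (median -0.25), and 0 passed. Lower in OS in 3 of 3 rats were the Apoe receptor genes Lrp8 (-0.85 ± 0.47) and Lrp1 (-0.60 ± 0.22), and Cyp46a1, which encodes the brain's cholesterol hydroxylase (-1.78 ± 1.76). For Cyp46a1 both eyes of rat 2 were below their limits, so the sign there was not measured.

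Some genes listed for other retinal cells also differed between eyes in the rats where Rlbp1 and Glul did, though 0 passed. The values do not show which cells the RNA came from, and a listed gene need not be exclusive to its cell type. The part of these genes in the differences of Rlbp1 and Glul was not tested. Of the pigment epithelium list, 7 of 8 genes had a named probe set, and their summed intensity was 2337 to 4976 in OS, against 6889 to 36095 in OD. Between 1 and 6 of the 7 exceeded the limit on an OS array, against 3 to 7 on an OD array. The melanin synthesis gene Tyrp1 differed by -4.30, 0.31 and -3.71 in rats 1 to 3 and the melanosome gene Pmel by -3.22, 0.44 and -3.75, the signs of Rlbp1 in each rat, although another tested probe set of Tyrp1 had the opposite mean sign. So did Rpe65, the retinoid isomerase that defines pigment epithelium, at -2.67, 0.53 and -0.06. All 3 genes were below the limit in OS of rat 1 and in OD of rat 2, so the sizes in those rats were not measured. Of 6 genes tested on this list, 1 had a higher and 5 a lower mean in OS. Dct, also of melanin synthesis, was lower in OS in 3 of 3 rats (-1.95 ± 0.50, limma adjusted p = 0.371).

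The 9 amacrine cell genes summed to 12576 to 24395 in OS, against 27821 to 72823 in OD, with 5 to 6 of 9 above the limit on OS arrays against 6 to 8 on OD arrays. Gad1, which makes GABA (-1.77 ± 0.80), the transcription factor gene Pax6 (-1.57 ± 0.58) and the calretinin gene Calb2 (-1.41 ± 0.66) were each lower in OS in 3 of 3 rats and did not pass (limma adjusted p = 0.242, 0.293 and 0.372). Of the 6 amacrine genes tested, 2 had a higher and 4 a lower mean in OS, with a median of -1.22. Ganglion cell markers summed to 11337 to 16628 in OS, against 17117 to 27610 in OD, over 10 genes, with 7 to 9 above the limit on OS arrays against 8 to 10 on OD arrays. Nefh differed by -1.72 ± 0.22, Nefm by -1.41 ± 0.43, Pou4f1 by -2.33 ± 1.04 and Thy1 by -0.78 ± 0.16, each lower in 3 of 3 rats, and of 9 tested 1 had a higher and 8 a lower mean in OS. The sums of the pigment epithelium, amacrine and ganglion cell lists did not overlap between eyes. Each was lower in OS in every rat after quantile normalization too. The pigment epithelium genes did not share this sign in rat 2, where the median difference over the 6 tested was 0.19. There 6 of the 7 genes exceeded the limit in OS, against 3 in OD.

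**Figure D3:**
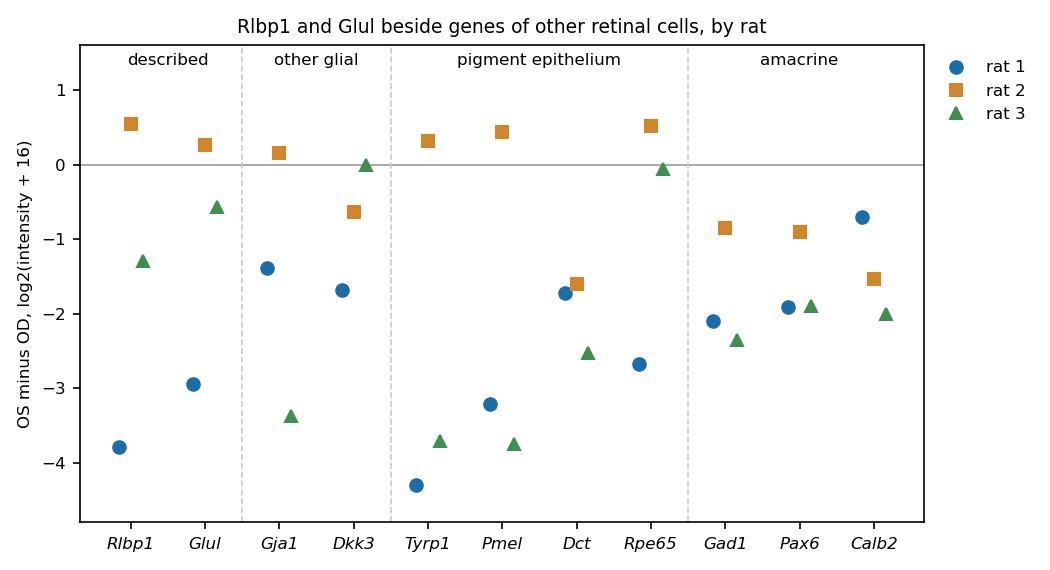
Difference of OS minus OD on the scale log2(intensity + 16), by rat, for Rlbp1 and Glul beside 2 other glial, 4 pigment epithelium and 3 amacrine cell genes, each by its brightest probe set. Nes, another named glial gene, is not shown and had a higher mean in OS (1.41 ± 1.26). Of the genes tested, 7 of 11 other glial, 1 of 6 pigment epithelium and 2 of 6 amacrine genes had a higher mean in OS. Rat 2 lies above 0 for Rlbp1, Glul, Gja1, Tyrp1, Pmel and Rpe65, where rats 1 and 3 lie below it.

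Microglia and macrophage genes had 4 higher and 2 lower means in OS among the 6 tested, with a median of 0.34. Their sum over 11 genes was 6181, 2910 and 13141 in OS, against 3427, 5815 and 4868 in OD, so OS was higher in rats 1 and 3 and lower in rat 2. On OS arrays 1 to 7 of the 11 exceeded the limit, against 5 to 6 on OD arrays. Lyz2, which encodes lysozyme, differed by 1.56 ± 0.02 (limma adjusted p = 0.492), with OS higher in each rat. The invariant chain gene Cd74 was above the limit on 0 OS and 3 OD arrays, and OD was at least 1.27-fold higher (limma adjusted p = 0.773). The lysosomal gene Laptm5 differed by -1.23 ± 1.33. Aif1, which encodes the microglial protein Iba1, read 570.6, 501.8 and 523.3 in OS, against 194.2, 46.3 and 28.6 in OD, was above the limit on 2 OS and 0 OD arrays, and was too dim to be tested. Their part in the values of Vim and Gfap was not tested.

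Endothelial and pericyte genes summed to 5194, 2970 and 12936 in OS, against 6619, 5826 and 7521 in OD, over 9 genes, with 1 to 6 above the limit on OS arrays against 2 to 6 on OD arrays. Their highest sum was on the OS array of rat 3, as for Vim, and their part in the Vim values was not tested. Of 7 tested, 4 had a higher and 3 a lower mean in OS (median 0.06), and the 3 with the smallest unadjusted p were the lower ones. The angiopoietin receptor gene Tek differed by -1.51 ± 2.31, and the pericyte genes Rgs5 by -0.99 ± 0.50 and Pdgfrb by -0.85, with rat 3 opposite to rat 1 for Pdgfrb. For Tek, Rgs5 and Pdgfrb both eyes of rat 2 lay below their limits, so the signs there were not measured. Pecam1, an endothelial adhesion gene, was above the limit in OD of rat 1 only.

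Photoreceptor genes summed to 10651 to 28992 in OS, against 12688 to 44125 in OD, over 10 genes, and 9 were tested with a median of -0.11. Rom1 (-1.02 ± 0.17) and Prph2 (-1.01 ± 0.75), both of outer segment discs, were lower in OS in 3 of 3 rats. The rod transducin gene Gnat1 differed by 3.52, -0.44 and -0.30 in rats 1 to 3 (0.92 ± 2.25), and its OD value in rat 1 was below the limit. Bipolar and horizontal cell genes summed to 3204 to 5266 in OS, against 2375 to 3986 in OD, over 7 genes, and all 6 tested had a higher mean in OS (median 0.24). Among them were the channel gene Trpm1 (1.37 ± 0.26) and Prkca (0.63 ± 0.67), which marks rod bipolar cells, and the glutamate receptor gene Grm6 (0.24 ± 1.71). Grm6 differed by -0.88, 2.22 and -0.61 in rats 1 to 3, and its OD value in rat 2 was below the limit. In rat 2 both eyes lay below their limits for Trpm1 and Prkca, as in rat 3 for Prkca, so those signs were not measured. On OS arrays 3 to 6 of the 7 genes exceeded the limit, against 2 to 7 on OD arrays. None of the photoreceptor, bipolar or horizontal cell genes passed between eyes. Among rats, Rom1 and Prph2 did (moderated F test, adjusted p = 0.0318 and 0.0111). So did Pmel and Lyz2 of the lists above (moderated F test, adjusted p = 0.0252 and 0.00722), beside 2.51% of all probe sets tested. The 9 glial genes themselves summed to 8049, 6857 and 17076 in OS, against 19450, 6920 and 16146 in OD, with log2 ratios of -1.27, -0.01 and 0.08 in rats 1 to 3. Without Rlbp1, the brightest, the ratios were -0.62, -0.20 and 0.54.

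**Figure D4:**
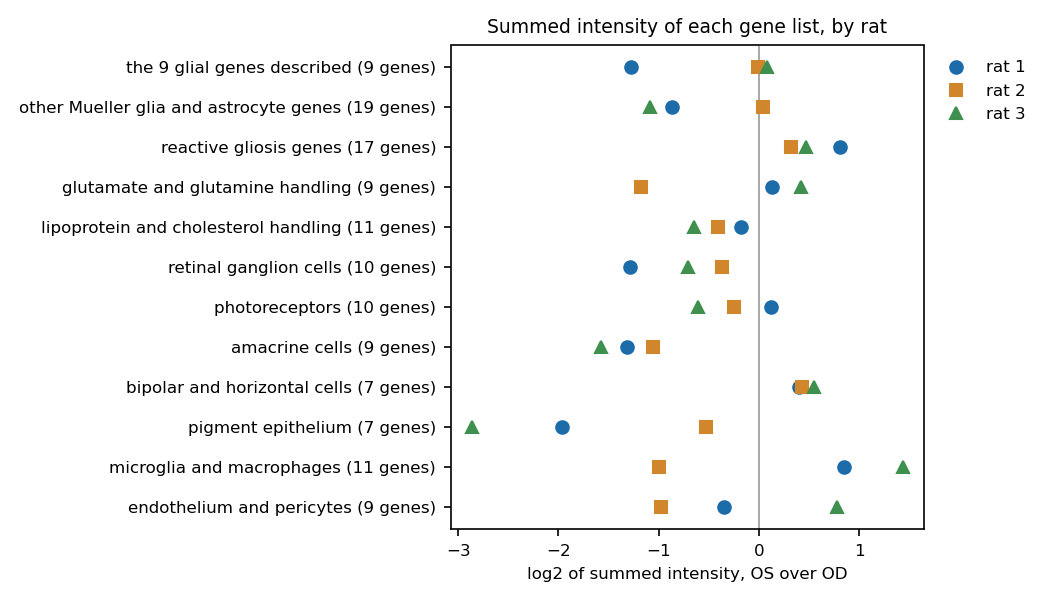
Log2 ratio of the summed intensity of each gene list, OS over OD, with a marker for each rat and the number of genes in brackets. The sum of the 9 glial genes has ratios of -1.27, -0.01 and 0.08 in rats 1 to 3. The reactive gliosis list lies above 0 in all 3 rats, and the amacrine, pigment epithelium and ganglion cell lists lie below 0 in all 3. In rat 2 the median difference over the tested genes had the opposite sign for reactive gliosis (-0.48) and pigment epithelium (0.19).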

How the data were processed

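Per the labels' protocols, captured-cell RNA (PicoPure) underwent linear amplification (RiboAmp HS), and 10 µg of biotinylated product went on 1 Affymetrix array per eye. GCOS is the tool named per the submitters' processing notes, and the sources used here give neither its version nor its settings. Each deposited value is a linear intensity without a detection call, and the values themselves show that arrays were scaled before deposit: with 2% trimmed at both ends, each of 6 arrays averaged about 500. Amplification from few cells and the number of arrays limit precision. Of 31099 probe sets, 57 were controls. The annotation gave 1 symbol for 20826 of the others, several for 436 and none for 9780; identifiers of 20758 were found in the RefSeq gene table and 0 symbols changed.

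Log2(intensity + 16) was tested with limma 3.58.1 in R 4.3.3 (rat as a fixed block, eye as a term, eBayes with an intensity trend, two-sided) over the 15521 probe sets at or above the median brightness, with Benjamini-Hochberg adjustment at 0.05. Differences among rats used the moderated F test of the same fit. With 2 residual degrees of freedom against 19.4 prior ones, p-values lean on the spread shared across probe sets, and the fit was tested on simulated data. Both eyes of a rat are paired because they come from 1 animal, per the labels; their deviations from the group means correlated at 0.109, 0.122 and 0.326 across probe sets in rats 1 to 3. Genes with several probe sets were represented by the brightest in counts and sums. Of the named genes of other lists, Slc38a1, Pdgfrb, Aif1, Gad1, Gja1, Grm6 and Dkk3 also had untested probe sets with the opposite mean sign. Named were all 9 genes, up to 3 genes per other list with the smallest unadjusted p, 1 defining marker per cell type, and the 3 genes most like Gfap; 1 item is not reported here. The 9 genes and all lists were chosen with earlier results of these data known. Alternatives covered the offset, quantile normalization, the brightness filter, the block, the trend, the probe sets of a gene and leaving out each rat.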

Additional observations from a re-analysis of the deposited data

How the results depend on the processing

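Over all probe sets, the count of 2 past the threshold between eyes became 0 in 6 settings: an offset of 1, quantile normalization, testing from the 75th percentile of brightness up, no intensity trend, no replicate block, and rat as a random replicate block (546 and 848 at an unadjusted p under 0.05 in the last pair). It was 9 with an offset of 64, 9 with no filter, and 18 to 59 when leaving out a rat. The count of 390 among rats was 237 after quantile normalization, 152 from the 75th percentile up, 0 with no intensity trend (1464 at an unadjusted p under 0.05), and 6 to 620 when leaving out a rat. Of the glial probe sets, 0 passed between eyes under any of these alternatives except Rlbp1 without rat 2, and 0 passed among rats, where that test could be made, except Vim without rat 1. No glial call changed without the block. With 1 rat left out, the count of glial genes higher in OS in all rats was 0 to 2, that of lower ones 1 to 4, and taking each gene's mean over its probe sets gave 1 higher. Among tested probe sets, means that changed sign were those of Vim (-1.20 to 1.48 with 1 rat left out), Slc1a3 1368565_at (-1.10 to 0.97 with 1 rat left out, 0.018 with an offset of 1), Slc1a3 1371130_at (-0.029 to 0.25), Glul 1386870_at (-0.31 to 0.69) and Aqp4 1387397_at (-0.068 to 1.25). Among untested ones, Glul 1367633_at (-2.08 to 0.86), Apoe 1370862_at (-0.24 to 1.06) and Clu 1367784_a_at (-1.91 to 1.53) changed sign with 1 rat left out, Clu also with an offset of 64 (-0.050) and quantile normalization (-0.12). S100b stayed between -2.84 and -2.08 over the alternatives, lowest in size with an offset of 64. The background limits gave a bound for S100b, which was lost without rat 1, and no bound for Apoe or Clu.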
